A study of Mus musculus with 12 samples.

Results

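The proteasome genes of the mouse were described here in skeletal muscle of young mice. They were chosen by symbol: every gene with a probe set of its own (a group of array probes that the platform annotation pairs with exactly 1 symbol) whose symbol starts with Psma, Psmb, Psmc, Psmd, Psme, Psmf or Psmg followed by a number. This gave 50 genes of 19938, and where a gene had several probe sets the brightest over all arrays stood for it. By known role 15 members belong to the 20S core, 17 to the 19S cap, 4 to the immunoproteasome and thymoproteasome, 5 to the alternative caps and the inhibitor, and 7 to the assembly factors. The remaining 2, Psmc3ip and Psme3ip1, share only the start of their symbols with the family, being named as partner proteins of a subunit, and were counted in no class. The study asked how loss of cofilin-2, the muscle form of an actin filament regulator, changes gene expression in a mouse model of congenital myopathy. RNA of whole quadriceps muscle from 7-day-old C57Bl/6 mice was hybridised to 12 Affymetrix Mouse Gene 1.0 ST arrays, 6 titled WT (genotype wildtype) and 6 titled KO (genotype cofilin-2 null). Per the methods, each array held a separate tissue sample of 1 mouse. The mice came as 6 pairs of null and littermate wildtype, and the labels do not say which arrays form a pair. How the null allele was made is not given in the sources used here, and sex is not in the labels.

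The proteasome is the main protease of the cytosol and nucleus. Its barrel-shaped 20S core is built of alpha and beta rings that enclose the catalytic beta subunits, and the 19S cap binds ubiquitin-tagged proteins, removes the tag and threads the unfolded chain into the barrel with a ring of ATPases. Interferon and cells of the immune system bring in other catalytic subunits and the PA28 cap, which favour peptides for antigen presentation, while dedicated chaperones put the core and the cap together. In skeletal muscle the system degrades myofibril proteins, and its subunits and muscle ubiquitin ligases rise together in many forms of wasting.

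The check of the genotype went against the titles. Cfl2, the targeted gene, had log2 levels of 4.92 to 7.71 in the group labelled WT and of 12.31 to 12.43 in the group labelled KO, so it was higher on the arrays labelled KO by 6.32 ± 0.36 (SE), the opposite of the study's direction for this gene. Ucp1, the uncoupling protein of brown fat, was higher there by 2.75 and Lep, the fat hormone leptin, by 2.12. For both genes the study gives the opposite direction as well. All arrays were kept in the groups of their titles. Every difference below is the log2 level on arrays labelled KO minus that on arrays labelled WT. Which group was the null one was not settled here, and Cfl2, Ucp1 and Lep all run against the titles. Were the titles exchanged, each difference below would be wildtype minus null. The tissue label held: the 12 muscle fibre markers averaged 12.57 to 12.86 on every array, with Ckm (muscle creatine kinase) between 13.33 and 13.44. Arrays correlated at 0.982 to 0.998, and no batch is given in the labels.

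The called proteasome genes moved in both directions. A gene was called when its adjusted p was below 0.05 in limma's moderated test, fitted to all 21789 probe sets with 1 symbol and adjusted over them by the Benjamini-Hochberg method. By this rule 12 of the 50 members were higher and 5 were lower on arrays labelled KO, beside 19.5% higher and 12.4% lower of all probe sets tested. The 17 called members are 34.0% of the family, close to the 31.9% of all probe sets called. By class, assembly factors gave 5 higher of 7 and none lower, the immunoproteasome class 2 higher of 4 and none lower, the alternative caps and inhibitor 2 higher and 1 lower of 5, the 19S cap 1 higher and 3 lower of 17, and the 20S core 1 higher and 1 lower of 15. The median difference was 0.25 over assembly factors, 0.17 over the immunoproteasome class, 0.10 over alternative caps, -0.10 over the cap and -0.05 over the core, against -0.02 over all probe sets tested. Changes were small, and 7 members were both called and at least 1.2-fold apart, against 18.3% of all probe sets. The arrays of the groups did not overlap for 9 members, 7 higher and 2 lower, where 15.4% of all probe sets did not overlap (10.5% higher and 4.92% lower). The count of lower members depended on single arrays: it was 11 without WT4 and 9 without KO1, and 3 without WT5, KO2, KO4 or KO6. In whole muscle a lower level from fewer cells of a type and from less RNA per cell cannot be told apart.

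**Figure D1:**
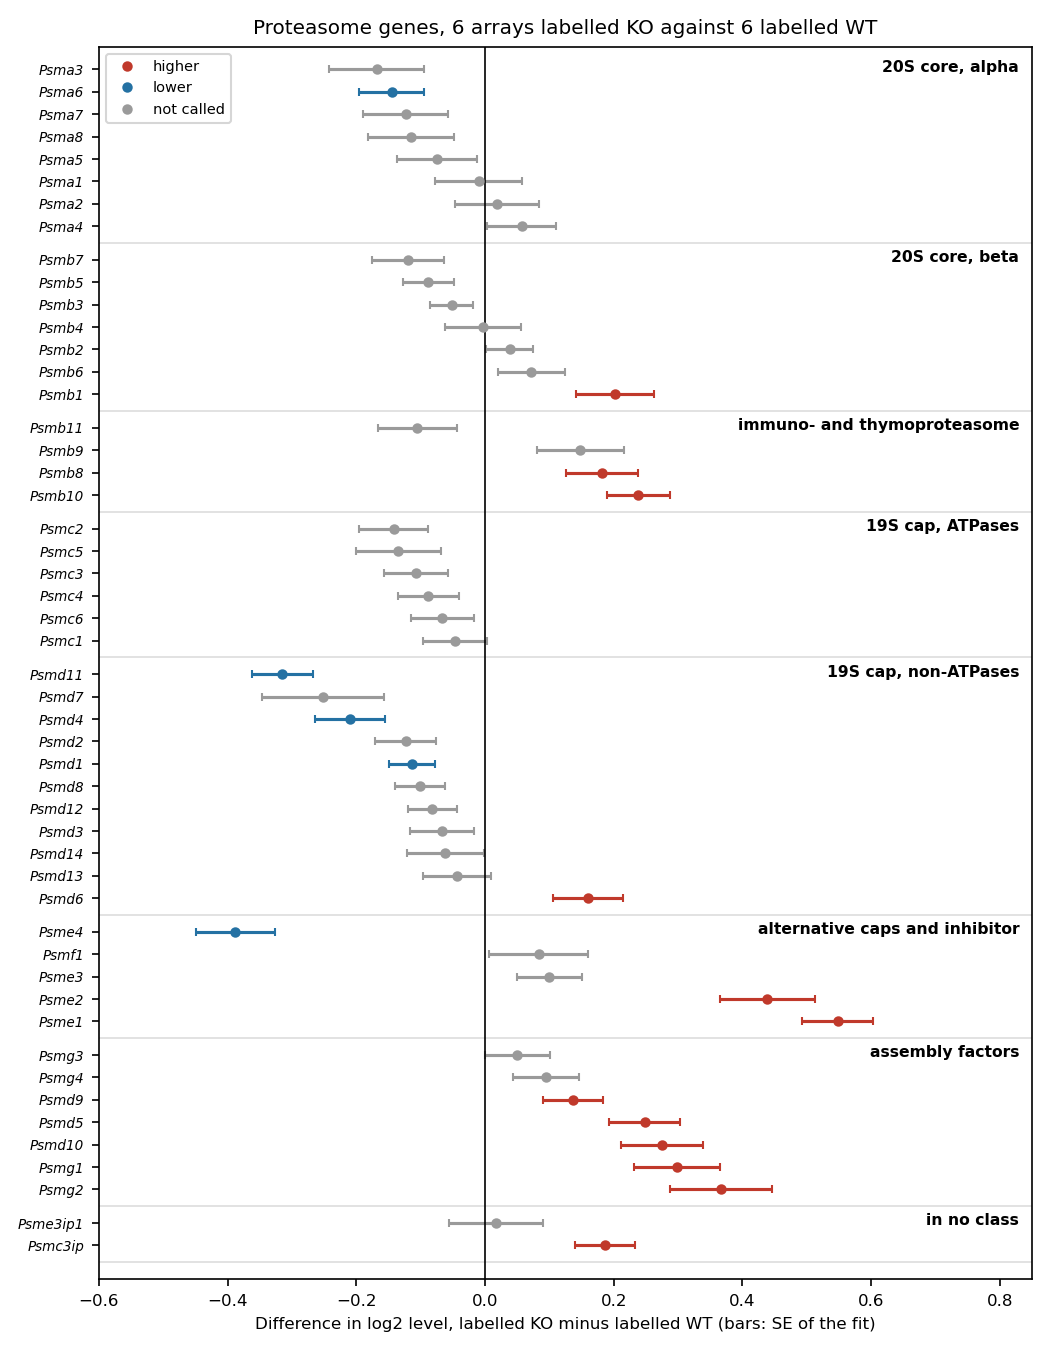
Difference in log2 level between 6 arrays labelled KO and 6 labelled WT (x axis) for each of the 50 proteasome genes (y axis), grouped by class; points are differences, bars the SE of the fit, red called higher, blue called lower, grey not called. Assembly factors lie to the right of 0, Psme1 and Psme2 farthest to the right at 0.55 and 0.44, and 16 of the 17 cap genes to the left.

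The largest changes of the family lay in the alternative caps. Psme1 and Psme2, the alpha and beta subunits of the PA28 cap that sits on the core without needing ubiquitin, were both higher, by 1.46-fold and 1.36-fold, and Psme4, which encodes the PA200 cap of the nucleus, was lower by 1.31-fold. Psme1 lay between 8.82 and 9.06 in the group labelled WT, with a median of 8.98, and between 9.35 and 9.63 in the group labelled KO, with a median of 9.52. Every array labelled KO was above every array labelled WT, by more than the whole range within either group. The difference was 0.55 ± 0.06 (SE, adjusted p = 1.31e-05 in limma). Psme2 lay between 9.53 and 10.05, median 9.87, in the group labelled WT and between 10.18 and 10.36, median 10.29, in the group labelled KO, again without overlap and with WT6 the lowest array. Its difference was 0.44 ± 0.07 (adjusted p = 0.000545), and signal from its near-identical copy Psme2b cannot be told apart on this array (1 further probe set is annotated to both and was not used).

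Psme1 and Psme2 lie close together on chromosome 14 and read towards each other, so they do not share a promoter. The 100 bases before the start site of each are shown because these were the members that changed most, taken from the RefSeq promoter table of build GRCm38.p6 and written along the gene's own strand. Psme1 is on the plus strand at chr14:55578394-55578493 and Psme2, at its start site farthest upstream, on the minus strand at chr14:55591102-55591201:
Psme1: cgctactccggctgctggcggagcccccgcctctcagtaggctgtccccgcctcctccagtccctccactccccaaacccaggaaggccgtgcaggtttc
Psme2: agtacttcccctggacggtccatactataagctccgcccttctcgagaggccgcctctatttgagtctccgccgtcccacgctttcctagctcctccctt
No motif is marked in capitals, because none of the 3 motifs searched below occurred in these bases. In Psme1 the letters GAAANNGAA, a core of the element that interferon regulatory factors bind, began at base 11 after the start on the opposite strand.

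Psme4 ran the other way. It lay between 10.70 and 10.96 on arrays labelled WT, median 10.91, and between 10.36 and 10.67 on those labelled KO, median 10.48. The groups did not overlap, though KO1, the highest of its group, came close to the lowest array labelled WT. The difference was -0.39 ± 0.06 (adjusted p = 0.000342 in limma). The other members of the class were not called. Psme3, the PA28 gamma cap of the nucleus, lay between 10.45 and 10.76 in the group labelled WT and between 10.58 and 10.76 in the group labelled KO (0.10 ± 0.05, adjusted p = 0.148), and it was called higher without WT4. Psmf1, which encodes the PI31 protein first described as an inhibitor of the core, spanned 9.20 to 9.62 and 9.25 to 9.60 (0.08 ± 0.08, adjusted p = 0.43). The 95% confidence intervals of this pair ran from -0.08 to 0.25, or -5.48% to 18.8%.

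**Figure D2:**
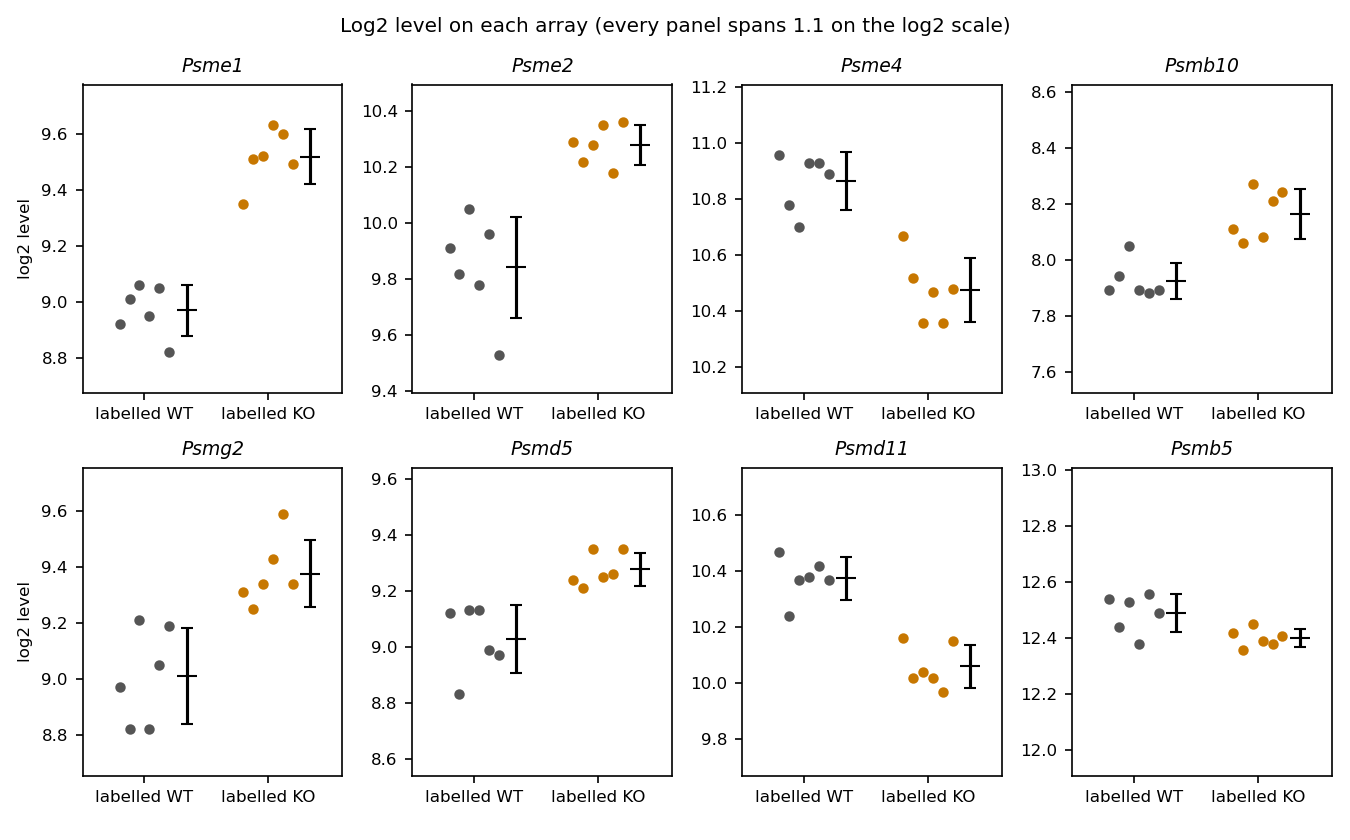
Log2 level (y axis, each panel spanning the same range) of 8 proteasome genes on each of the 6 arrays labelled WT (grey) and 6 labelled KO (orange); the cross and bar beside each group are its mean and SD. Psme1, Psme2, Psmb10, Psmg2 and Psmd5 have all arrays labelled KO above all labelled WT, Psme4 and Psmd11 have them all below, and Psmb5 overlaps.

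Of the immunoproteasome subunits, which take the place of the constitutive catalytic subunits in newly built cores, Psmb10 and Psmb8 were higher and Psmb9 was not called. Psmb10 (MECL-1) ranged from 7.88 to 8.05, median 7.89, in the group labelled WT and from 8.06 to 8.27, median 8.16, in the group labelled KO. The groups only just failed to overlap, since WT3 stood well above the other 5 arrays labelled WT. The difference was 0.24 ± 0.05 (adjusted p = 0.00205 in limma). Psmb8 (LMP7) ranged from 5.61 to 5.92, median 5.79, and from 5.89 to 6.13, median 5.92, with 3 arrays labelled KO above all arrays labelled WT. Its difference of 0.18 ± 0.06 (adjusted p = 0.0242) was no longer called without KO3 or without KO6. Psmb9 (LMP2) ranged from 7.15 to 7.52, median 7.37, and from 7.41 to 7.73, median 7.47. This is a difference of 0.15 ± 0.07 with an adjusted p of 0.108. Psmb11, the thymus form that cortical epithelium of the thymus uses, was dim in both groups, at 5.0 to 5.40, median 5.16, and 5.02 to 5.16, median 5.07 (-0.11 ± 0.06, adjusted p = 0.206). Psmb8 and Psmb11 both lay below the median level of all probe sets tested, 7.15.

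Each inducible subunit was set against the constitutive subunit whose place it takes, as the difference of their log2 levels on the same array, which tests whether the groups differ unequally for the 2 genes and not which gene is more abundant. Psmb8 minus Psmb5 was higher on arrays labelled KO by 0.27 (two-sided exact permutation test over 6 and 6 arrays, p = 0.00866, 0.013 after Benjamini-Hochberg over the 3 pairs). It was -6.83 to -6.46 in the group labelled WT and -6.52 to -6.28 in the group labelled KO, where 3 of 6 lay above all arrays labelled WT. Psmb10 minus Psmb7 was higher by 0.36 (exact permutation p = 0.00433, adjusted 0.013), at -3.55 to -3.17 against -3.21 to -2.82, with 5 of 6 arrays above. Psmb9 minus Psmb6 differed by 0.08 (exact permutation p = 0.439, adjusted 0.439). The smallest p this design allows is 0.00216. With the replicate number as a block, the adjusted exact p of Psmb8 minus Psmb5 and of Psmb10 minus Psmb7 went to 0.0938. The labels do not say whether a number marks a litter. Neither constitutive partner of these pairs was called by itself: Psmb5 differed by -0.09 ± 0.04 (adjusted p = 0.103 in limma) and Psmb7 by -0.12 ± 0.06 (adjusted p = 0.119).

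The assembly factors were the class with the most calls for its size. All 7 differences were positive, under median centring and quantile normalization as well, and the mean level of the class was 8.18 to 8.35 in the group labelled WT and 8.44 to 8.53 in the group labelled KO. Psmg1 and Psmg2 form a chaperone pair that builds the alpha ring of the core. Psmg2 was 8.82 to 9.21, median 9.01, in the group labelled WT and 9.25 to 9.59, median 9.34, in the group labelled KO, without overlap (0.37 ± 0.08, adjusted p = 0.00296 in limma). Psmg1 was 8.37 to 8.80, median 8.71, against 8.90 to 9.06, median 8.94, also without overlap and with WT6 far below the other arrays labelled WT (0.30 ± 0.07, adjusted p = 0.00377). Their partner pair was not called: Psmg3 differed by 0.05 ± 0.05 (adjusted p = 0.474) at a level of 6.05 to 6.32 and 6.17 to 6.31, and Psmg4 by 0.10 ± 0.05 (adjusted p = 0.17).

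The chaperones of the cap base gave the same direction. Psmd10, known as gankyrin, which holds an ATPase of the base during assembly, was 9.13 to 9.43, median 9.34, in the group labelled WT and 9.45 to 9.71, median 9.59, in the group labelled KO. The groups were separate, and the difference was 0.28 ± 0.06 (adjusted p = 0.00454 in limma). Psmd5 was also separate, at 8.83 to 9.13 against 9.21 to 9.35 (0.25 ± 0.06, adjusted p = 0.0038). Psmd9 was higher by 0.14 ± 0.05 (adjusted p = 0.0384) with 5 of 6 arrays labelled KO above all labelled WT, and lost its call without WT4, WT5, KO1, KO2, KO4, KO5 or KO6, among other settings. Pomp, the chaperone that closes the core and is no member by symbol, was higher as well, at 8.79 to 9.14 against 9.21 to 9.36 without overlap (0.26 ± 0.06, adjusted p = 0.00417). The products of Psmd5, Psmd9 and Psmd10 are known to leave the cap once it is built and are no part of the finished particle.

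The 19S cap ran slightly the other way. The difference was negative for 16 of its 17 members, or for 14 of 17 under median centring, yet only 3 were called lower and 1 higher. The mean level of the class was 10.47 to 10.61 in the group labelled WT and 10.41 to 10.53 in the group labelled KO. The ranges overlap through WT4 alone (10.47), and the next lowest array labelled WT, WT2, was at 10.54. Psmd11, a lid subunit that helps hold lid and base together, fell most: it was 10.24 to 10.47, median 10.38, in the group labelled WT and 9.97 to 10.16, median 10.03, in the group labelled KO. It was the only cap gene whose groups did not overlap (-0.32 ± 0.05, adjusted p = 0.00026 in limma). Psmd4, a ubiquitin receptor of the cap, was 9.82 to 10.13, median 9.97, against 9.65 to 9.83, median 9.75, with 5 of 6 arrays labelled KO below all labelled WT (-0.21 ± 0.05, adjusted p = 0.00889). Psmd1, the large scaffold subunit of the base, was 11.69 to 11.79, median 11.74, against 11.57 to 11.69, median 11.62. Its difference of -0.11 ± 0.04 (adjusted p = 0.0261) was small but 5 of 6 arrays lay below, and the call was lost without WT5, KO2, KO4, KO5 or KO6. The count of cap members called lower was 8 without WT4, 5 without KO1 and 2 at the lowest.

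Psmd6, a lid subunit, was the cap gene that rose, at 10.66 to 10.95, median 10.88, against 10.91 to 11.15, with 4 of 6 arrays above all labelled WT (0.16 ± 0.05, adjusted p = 0.0387 in limma). That call did not hold without WT1, WT4, WT6, KO1, KO4, KO5 or KO6. The 6 ATPases of the base, Psmc1 to Psmc6, were not called, with differences of -0.14 to -0.05 that were all negative except Psmc1 under median centring. Among the other lid and base genes Psmd7 had the largest uncalled difference (-0.25 ± 0.09, adjusted p = 0.0567): it spanned 10.09 to 10.76 in the group labelled WT and 9.97 to 10.18 in the group labelled KO, and was called lower without WT2 or without WT4. Psmd2, the other scaffold of the base, differed by -0.12 ± 0.05 (adjusted p = 0.0606), and Psmd14, the enzyme that cuts ubiquitin chains off the substrate, by -0.06 ± 0.06 (adjusted p = 0.456). For the 13 cap members not called the 95% confidence intervals ran from -0.45 to 0.07 in all, or -27.0% to 4.94% for single genes.

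The 20S core was the class with the fewest calls for its size, 2 of 15, beside 31.9% of all probe sets called. No core gene had separate groups, where 15.4% of all probe sets did. Its mean level was 10.48 to 10.63 in the group labelled WT and 10.50 to 10.61 in the group labelled KO. Psmb1, a beta ring subunit without catalytic activity, was higher: 9.38 to 9.74, median 9.61, in the group labelled WT and 9.68 to 9.89, median 9.80, in the group labelled KO, with 4 of 6 arrays above (0.20 ± 0.06, adjusted p = 0.0213 in limma). Psma6, an alpha ring subunit, was lower: 11.34 to 11.64, median 11.50, and 11.26 to 11.47, median 11.35 (-0.15 ± 0.05, adjusted p = 0.0421). The groups overlapped widely and leaving out any array but WT4 or KO1 ended that call. Without KO1, 3 core genes were called lower, and without WT4, 2. The constitutive catalytic subunits Psmb5, Psmb6 and Psmb7 were not called, Psmb6 with a difference of 0.07 ± 0.05 (adjusted p = 0.312). Psma8, the alpha subunit of the testis proteasome, was dim in both groups, at 4.90 to 5.38, median 5.03, and 4.87 to 5.02, median 4.95 (-0.12 ± 0.07, adjusted p = 0.21).

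For the 13 core genes not called the 95% confidence intervals ran from -0.33 to 0.18 in all, or -20.3% to 13.5% for single genes. The 8 alpha subunits had a median difference of -0.10 and the 7 beta subunits of -0.0033. Psma3 was measured by 3 probe sets and Psma5, Psmb3, Psmc1 and Psmd2 by more than 1, and the probe sets of each gene had the same sign and none was called.

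The 2 members of no class behaved apart from each other. Psmc3ip, which encodes a meiotic recombination protein, was dim, at 6.30 to 6.52, median 6.35, and 6.48 to 6.65, median 6.54, and higher by 0.19 ± 0.05 (adjusted p = 0.00724 in limma). Psme3ip1, the PA28 gamma binding protein, differed by 0.02 ± 0.07 (adjusted p = 0.88).

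Arrays of the same group also differed among themselves. Over the 12 arrays together the ATPases and the beta subunits had the highest shared variation of the classes and subclasses compared. After each gene's group mean was taken out, the mean pairwise correlation over the 12 arrays was 0.537 among the 6 ATPases, 0.427 among the 7 beta subunits, 0.333 over the whole core and 0.299 over the whole cap. It was 0.275 among alpha subunits, 0.199 among immunoproteasome genes, 0.182 among non-ATPase cap genes, 0.062 among assembly factors, 0.0568 among alternative caps and 0.00846 over all genes tested. Within the group labelled WT alone it was 0.0946 among non-ATPase cap genes and 0.14 among assembly factors, the reverse order, and -0.0166 among immunoproteasome genes. Within the group labelled KO alone the ATPases were still highest (0.679), but the beta subunits were at 0.301. That was below alpha subunits (0.428), the whole cap (0.419), immunoproteasome genes (0.414), the whole core (0.35) and non-ATPase cap genes (0.312). Assembly factors were at -0.0682 there. These are descriptions from 12 arrays that share RNA, labelling and scale, and no test was made. Among the 32 core and cap genes KO1 was the highest array of its group for 20, KO2 and KO3 were the lowest of theirs for 15 each, and WT4 was the lowest of its group for 16. The mean level of the 32 genes was 10.47 on WT4 and 10.53 on WT2, and 10.60 to 10.62 on the other arrays labelled WT, against 10.45 to 10.57 on those labelled KO. The spread of all values on an array also differed a little between groups, with an SD of 2.21 to 2.26 among arrays labelled WT against 2.27 to 2.29 among those labelled KO.

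**Figure D3:**
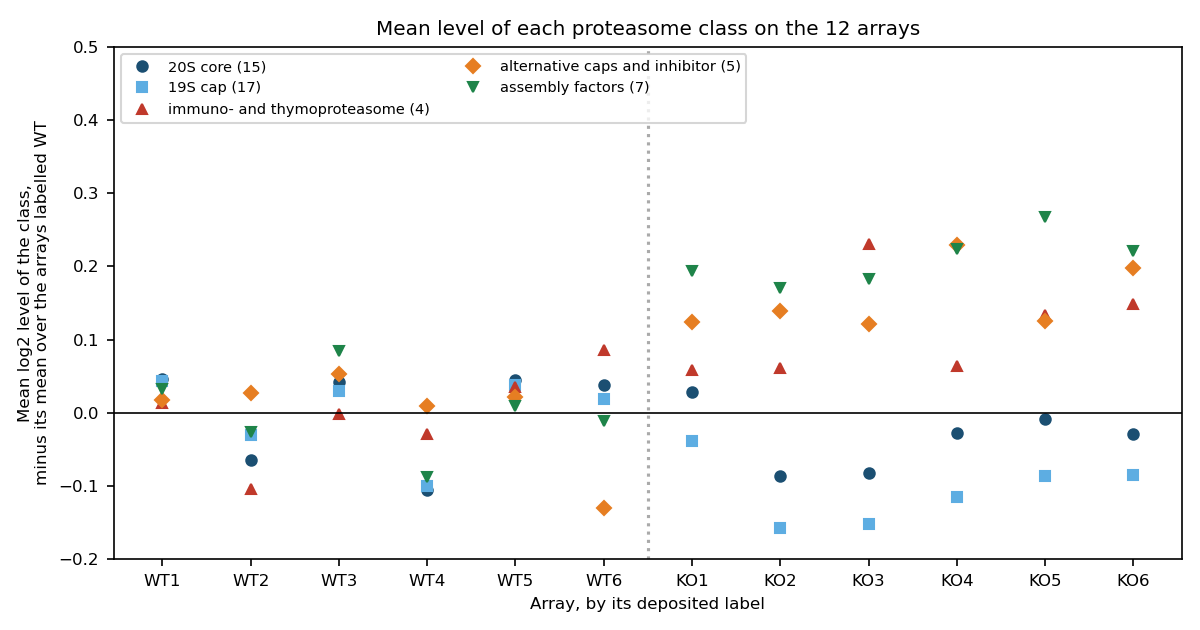
Mean log2 level of each proteasome class on each array (y axis, less the mean of the class over the arrays labelled WT) by array title (x axis); the number of genes in each class is in brackets. Assembly factors and alternative caps lie higher on all 6 arrays labelled KO than on any labelled WT, the core overlaps, and WT4 is low for core and cap alike.

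Genes that control proteasome transcription changed in both directions. Of 9 measured regulators 5 were higher and 2 lower, where 19.5% of all probe sets were higher and 12.4% lower. Nfe2l1, which encodes the factor NRF1 that drives subunit genes when proteasome activity is short, was 11.25 to 11.70, median 11.39, in the group labelled WT and 10.79 to 11.03, median 10.86, in the group labelled KO. The groups were well apart (-0.54 ± 0.07, adjusted p = 6.96e-05 in limma). Its relative Nfe2l2, encoding NRF2 of the oxidative stress response, went the other way, at 9.81 to 10.26, median 9.94, against 10.18 to 10.26, median 10.22 (0.25 ± 0.06, adjusted p = 0.00806). Nfyb (0.52 ± 0.08, adjusted p = 0.000171) and Nfya (0.32 ± 0.08, adjusted p = 0.00922), subunits of the factor that binds the CCAAT box, were higher. Fbxw7, a ubiquitin ligase subunit that targets NRF1 among other proteins, was higher by 0.34 ± 0.06 (adjusted p = 0.000774).

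The factors NRF1 and NRF2 bind the antioxidant response element, whose core is TGACNNNGC. It was searched on both strands from 250 bases before to 50 bases after each start in the RefSeq promoter table (GRCm38.p6), which held 42 of the 50 members. It occurred in 6 of these, or 14.3%, and in 14% of all 27025 genes in the table. The 6 sites are shown because Nfe2l1, a factor of this element, was lower, and they run 5′ to 3′ along the gene with the matched letters in capitals. They lie in Psmb5 (minus strand, chr14:54618009-54618067), Psmb6 (plus strand, chr11:70525323-70525356), Psmc6 (plus strand, chr14:45329574-45329630), Psmd9 (plus strand, chr5:123228134-123228189), Psmd12 (plus strand, chr11:107479278-107479314) and Psme4 (plus strand, chr11:30771743-30771776):
Psmb5: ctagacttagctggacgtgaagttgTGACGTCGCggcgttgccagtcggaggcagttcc
Psmb6: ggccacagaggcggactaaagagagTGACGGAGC
Psmc6: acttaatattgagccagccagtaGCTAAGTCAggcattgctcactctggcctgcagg
Psmd9: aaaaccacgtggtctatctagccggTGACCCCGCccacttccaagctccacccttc
Psmd12: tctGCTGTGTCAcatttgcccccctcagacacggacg
Psme4: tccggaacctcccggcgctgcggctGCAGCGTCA
The sites of Psmc6, Psmd12 and Psme4 are on the opposite strand, where they read as GC, 3 free bases and GTCA. Of the 6 genes with a match Psme4 was lower, Psmd9 was higher and Psmb5, Psmb6, Psmc6 and Psmd12 were not called. The CCAAT box (CCAAT, either strand) occurred in 16 of the 42 members, or 38.1%, and in 41.1% of all genes. The interferon element core GAAANNGAA occurred in 7, or 16.7%, and in 9.76% of all genes: Psmb3, Psmb4, Psmc2, Psmd4, Psmd9, Psme1 and Psmg4. It was in no window of Psmb8, Psmb9, Psmb10 or Psmb11. A match of letters describes a window and does not show that a factor binds there.

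Of 19 measured partners of the proteasome without the family's symbols, 3 were higher (Pomp, Sem1 and Faf2) and 3 lower (Nploc4, Vcp and Faf1). This is 31.6% called, a share near the 31.9% of all probe sets. Nploc4, a cofactor of the VCP segregase that pulls ubiquitin-tagged proteins out of complexes and membranes, was lower without overlap, at 11.60 to 11.80 against 11.31 to 11.44 (-0.32 ± 0.05, adjusted p = 0.000223 in limma). Faf1, another VCP cofactor, was lower as well (-0.19 ± 0.05, adjusted p = 0.00642). The VCP cofactors did not all fall. Faf2 was higher without overlap (0.135 ± 0.036, adjusted p = 0.0119), and Ufd1 was not called (0.105 ± 0.072, adjusted p = 0.282). Sem1, a small lid subunit without the family's symbol, was higher by 0.20 ± 0.06 (adjusted p = 0.0169). Only 1 of 6 ubiquitin supply genes had a probe set of its own, the activating enzyme Uba6 (0.20 ± 0.06, adjusted p = 0.0227).

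Of the muscle ubiquitin ligases that feed the proteasome in wasting muscle and their FOXO activators, 4 of 7 were lower and none was higher, beside 12.4% lower and 19.5% higher over all probe sets. Fbxo32 (atrogin-1) was 8.64 to 10.69, median 9.60, in the group labelled WT and 7.92 to 8.78, median 8.18, in the group labelled KO. The arrays labelled WT were spread widely and their lowest, WT4, lay within the range of the other group (-1.41 ± 0.31, adjusted p = 0.00382 in limma). Trim63 (MuRF1) was not called, at 8.68 to 10.10, median 9.28, and 8.58 to 9.15, median 8.81 (-0.47 ± 0.21, adjusted p = 0.0999). Fbxo30 was lower without overlap, at 9.44 to 9.66 against 8.85 to 8.90 (-0.68 ± 0.04, adjusted p = 3.15e-07). Foxo3 (-0.44 ± 0.14, adjusted p = 0.0271) and Foxo1 (-0.38 ± 0.10, adjusted p = 0.00792) were lower too.

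Of 12 measured genes of antigen presentation and the interferon response, the setting in which Psmb8 to Psmb10, Psme1 and Psme2 are known to be induced, 5 were higher and 1 was lower, beside 19.5% and 12.4% of all probe sets. Irf1, a factor that drives immunoproteasome genes, was higher by 0.37 ± 0.13 (adjusted p = 0.0383 in limma), Stat2 by 0.36 ± 0.10 (adjusted p = 0.011) and the peptide transporter subunit Tap1 by 0.28 ± 0.09 (adjusted p = 0.0311). Nlrc5, the activator of class I genes, was lower (-0.33 ± 0.09, adjusted p = 0.0106). The groups were without overlap for 0 of the 12, and for 15.4% of all probe sets.

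Markers of other cells also differed between the groups, and their counts stand beside 19.5% of all probe sets higher and 12.4% lower. Of 16 leukocyte markers 9 were higher and none was lower, led by the macrophage genes Adgre1 (0.88), Fcer1g (0.77), C1qb (0.51) and C1qc (0.51), while Ptprc, which all leukocytes carry, differed by -0.02 (adjusted p = 0.935 in limma) and the B cell gene Cd79a was the dimmest at 4.31 to 5.51. The neutrophil gene S100a8 had a mean level of 6.44 in the group labelled WT and 5.44 in the group labelled KO (adjusted p = 0.187) and the T cell gene Cd3e a difference of -0.13 (adjusted p = 0.167), neither of them called. WT4 was the highest of the 12 arrays for S100a8 (9.64), Ptprc (7.74), Itgam (7.26), Cd52 (6.88) and Cd79a (5.51). The mean level of the list was 7.39 to 8.26 on arrays labelled WT, with WT4 at the top, and 7.79 to 8.01 on those labelled KO. Of 11 cycling cell markers 10 were higher (7.69 to 8.82 against 8.97 to 9.20), of 10 fibroblast markers 9 were higher and 1 was lower (10.16 to 10.54 against 10.64 to 10.84), of 10 endothelial markers 6 were higher (9.52 to 9.88 against 9.96 to 10.03), and of 9 adipocyte markers 5 were higher (8.21 to 9.06 against 8.20 to 9.97). The 12 muscle fibre markers all had negative differences, with 6 called lower (12.72 to 12.86 against 12.57 to 12.75), among them Ttn (-0.40) and Des (-0.25). The part of these cell types in the higher assembly factors, PA28 subunits and immunoproteasome genes, or in the lower cap genes, was not tested.

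**Figure D4:**
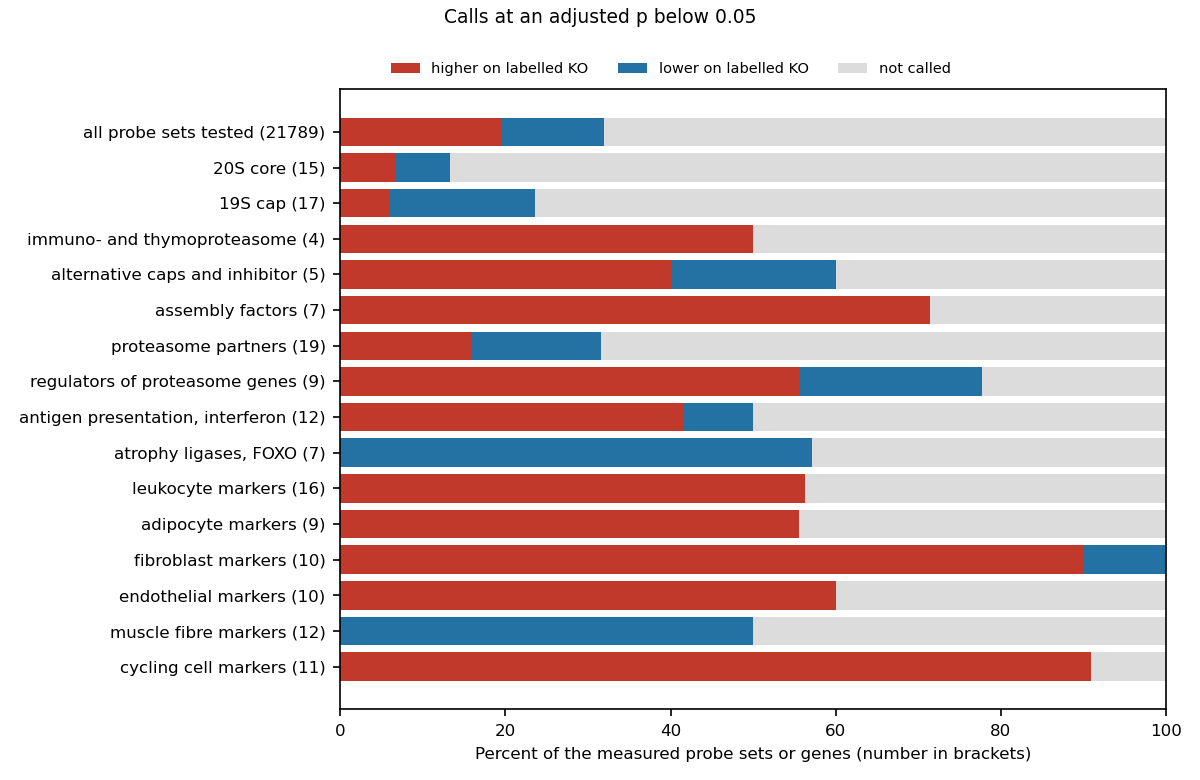
Percent of genes called higher (red) or lower (blue) on arrays labelled KO, or not called (grey), for all probe sets tested, the 5 proteasome classes and 10 pathway or marker lists; the number measured is in brackets. The core has the smallest coloured share, 2 of 15, below the 31.9% of all probe sets, and assembly factors the largest of the proteasome classes, 5 of 7.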

How the data were processed

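The values were gene-level levels on a log2 scale that the authors made with Affymetrix Power Tools from Mouse Gene 1.0 ST arrays (Affymetrix scanner and GCOS software) and deposited as 1 table of 35556 probe sets by 12 arrays. For the tool's version, the summarisation method and the build of the annotation the entry is: not given in the sources used here. A log2 scale was read from the range of the values. Probe sets were named through the platform annotation: 21789 had 1 symbol, 1621 several and 12146 were not listed. 21698 matched a gene of RefSeq GRCm38.p6 by identifier. Groups were taken from the sample labels.

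All 21789 probe sets were fitted with limma 3.58.1 (lmFit and eBayes, R 4.3.3) without covariates. The p-values were adjusted over them by the Benjamini-Hochberg method with a threshold of 0.05. The methods describe pairs of null and littermate wildtype mice and name Student's t-test, without stating a paired test or a covariate. The labels do not say which arrays form a pair, so the fit was unpaired. Confidence intervals are 95% from the same fit. The 3 subunit pairs were compared with exact permutation tests (scipy 1.17.1). The fit was tested on simulated data. It recovered 23 of 50 planted log2 changes of 0.25 and 47 of 50 of 0.5, with 10 false calls. Far fewer probe sets were changed there than were called here, so these shares do not carry over directly. A change of the size seen in most members can be missed. The members and gene lists were chosen with earlier results of these data known, so no list was tested as a set and none is independent evidence. Full values are given for Psmb8 to Psmb11, Psme1 to Psme4, Psmf1, Psma8, Psmc3ip and, in the other classes, the 3 called members with the largest rise and the 3 with the largest fall; from each list up to 4 called genes with the largest change are named, and Fbxo32, Trim63, Nfe2l1, Nfe2l2 and Pomp whatever their call. Other genes were named after their values were seen.

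Alternatives were median centring, quantile normalization, leaving out dim probe sets (mean level under 7.15), all 35556 rows, a variance trend with robust fitting, array weights, the replicate number as a block, the methods' t-test, and each array left out in turn. A further reading of the methods' minimum change, as a quotient of log2 levels, was added after seeing the data. The number of arrays limits the precision.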

Additional observations from a re-analysis of the deposited data

Results flagged for a closer look

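In 10 of the 100 sets of 6 arrays (50 members in each group) the highest or lowest array stood apart from the rest, meaning that its gap to the nearest array was a larger share of the whole range than Dixon's critical value allows, where chance alone gives about 1 in 20. On KO1 Psma1 was 10.95 (nearest other array 10.81), Psmb7 11.32 (nearest 11.16) and Psmc1 10.39 (nearest 10.28), all above the other 5 arrays labelled KO, and Psme3ip1 was 8.80 (nearest 9.09), below them. On WT4 Psmb2 was 11.56 (nearest 11.66) and Psmb4 11.41 (nearest 11.66), both the lowest of their group. On WT3 Psmb10 was 8.05 (nearest 7.94) and Psmc3ip 6.52 (nearest 6.37), both the highest. On WT6 Psma8 was 5.38 (nearest 5.04), the highest, and Psmg1 8.37 (nearest 8.66), the lowest. Psmb10, Psmc3ip and Psmg1 were called higher on arrays labelled KO and kept their calls without each of these arrays.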

How the results depend on the processing

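Of the 17 called members 10 kept their call under all 22 alternatives, Psmc3ip kept it under the 21 that gave it a value (it was left out with the dim probe sets), and 6 lost it under at least 1 (Psma6, Psmd6, Psmd9, Psmd1, Psmb8 and Psmb1). None of the 17 changed sign. Of the 33 members not called, 12 were called under at least 1 alternative. The labels do not say whether a replicate number marks a litter. After the group means were taken out, same-numbered arrays correlated at -0.223 to 0.168, with the own number highest for 1 of 6. A weak litter effect need not show in such correlations, so they cannot decide whether the numbers pair the arrays. With the number as a block 10 members were higher and 4 lower, with 0 core members lower and 0 cap members higher, and the adjusted exact p of Psmb8 minus Psmb5 (0.27) and of Psmb10 minus Psmb7 (0.36) went to 0.0938. The count of all members called lower was 8 under quantile normalization, 3 under median centring (which also moved the median difference of all members to 0.0058), 8 without dim probe sets, 15 with array weights and 12 under the methods' t-test at the methods' thresholds (an unadjusted p under 0.05 and a small minimum change, taken here as a fold of linear levels), against 5. Where that change was read as a quotient of mean log2 levels, an alternative chosen after seeing the data, 1 member was higher (of the alternative caps) and 0 were lower, with 0 called in the core, the cap, the immunoproteasome and the assembly factors. Core members called lower were 2 under quantile normalization, 0 under median centring, 0 with all rows, 4 with array weights (and 0 higher) and 2 under the methods' t-test at the methods' thresholds. Cap members called lower were 5 under quantile normalization, 6 without dim probe sets, 5 with the variance trend, 10 with array weights and 9 under the methods' t-test at the methods' thresholds. Cap members called higher were 0 under quantile normalization, all rows, array weights and the methods' t-test after adjustment. Without dim probe sets 1 immunoproteasome member was higher of 2 measured. The median over assembly factors was 0.20 under quantile normalization and 0.30 under median centring.

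With each array left out in turn, 9 to 12 members were higher and 3 to 11 lower, core members lower were 0 to 3, cap members higher 0 to 1 and lower 2 to 8, and immunoproteasome members higher 1 to 2. Uncalled members that changed sign were Psma1 (0.0408 under median centring, and -0.0637 to 0.0223 with an array left out), Psma2 (-0.0256 under quantile normalization, -0.0355 with array weights, and -0.0237 to 0.048 with an array left out), Psma4 (-0.0011 with array weights), Psmb4 (0.0044 under quantile normalization, 0.0475 under median centring, and -0.0537 to 0.0163 with an array left out), Psmc1 (0.0042) and Psmd13 (0.0075), both under median centring, and Psme3ip1 (-0.0386 under quantile normalization, and -0.0223 to 0.075 with an array left out). The groups hold 6 arrays each and the titles run opposite to Cfl2, so a difference can be read only between the arrays as labelled.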
